A study of Mus musculus with 10 samples.

Results

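The 10 genes described here encode the main plasma apolipoproteins made by liver and the transfer protein that loads lipid onto them: Apob, Mttp, Apoa1, Apoa2, Apoe, Apoc1, Apoc2, Apoc3, Apoa4 and Apoa5. They are 10 of the 18193 genes with a probe set of their own on the array. They were chosen by symbol, and of the 16 probe sets for the 10 genes the brightest per gene, by mean signal over all 10 arrays, was used. All 10 passed the filter on low signals that left 11032 genes for testing.

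Liver RNA of mice of the 129/B6 strain was hybridised to 10 Affymetrix arrays. HCC was sampled on 2 arrays, from an 18-month male and a 14-month female Gnmt knockout mouse. Tissue of liver dysplasia nodules (here the nodule) came from a 21-month female knockout, and the 3 aged mice also gave 1 array each of liver adjacent to the lesion. At 11 weeks there were 2 Gnmt knockout arrays and 2 wild-type arrays, 1 female and 1 male per genotype, each of RNA mixed from 3 mice. No aged wild-type liver is among these arrays, so every aged sample lacks Gnmt, and each pool's spread between its 3 mice was not measured. Gnmt encodes glycine N-methyltransferase, a liver enzyme that uses S-adenosylmethionine, the methyl donor that phosphatidylcholine synthesis also draws on. The comparisons set knockout against wild-type liver at 11 weeks, lesion against adjacent liver, aged adjacent liver against young knockout liver, and females against males at 11 weeks.

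Hepatocytes export triglyceride as very-low-density lipoprotein (VLDL), which is built around a single apolipoprotein B by the microsomal triglyceride transfer protein, the product of Mttp. Apolipoproteins A-I and A-II form the body of high-density lipoprotein (HDL), and apolipoprotein E is the ligand by which remnant particles are taken up. The small C apolipoproteins and apolipoprotein A-V govern how fast lipoprotein lipase strips triglyceride from the particles: C-II is the activator the enzyme needs, C-III and C-I restrain clearance, and A-V promotes it. Apolipoprotein A-IV is carried on triglyceride-rich particles and HDL, and its liver transcript is known in mice to follow hepatic fat.

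Median signals ran from 77.4 to 102.4 per array, and with so few arrays per group precision is limited. Gnmt had signals of 245.2 in the female and 190 in the male knockout pool and 11.7 to 329.4 in the aged knockout tissues, against 59472.6 in the female and 52139.9 in the male wild-type pool. Albumin and other hepatocyte markers, 7 measured of 9 listed, summed to 222360 to 336990 on every array. The ratio of the BioC to the BioB hybridisation control was 1.45 to 1.84 on the 6 aged arrays and 3.9 to 5.09 on the 4 young ones, so age and array handling cannot be told apart. In whole tissue, fewer cells of a type and less RNA per cell cannot be told apart either.

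These genes gave some of the brightest signals on the arrays. The 4 probe sets of Apoa1 ranked 1, 2, 3 and 5 by mean signal among all 45101, and even Mttp, the dimmest of the 10 genes, was exceeded by 2.01% of probe sets. Signals are on a linear scale without units, and levels of different probe sets are not set against each other here. Within each gene, the span between the lowest and the highest of the 10 arrays separated 3 genes from the other 7. Apoa4 spanned 11.29-fold, Apoc2 6.093-fold and Apoa5 4.819-fold, wider spans than those of 94.93%, 87.39% and 82.58% of all tested genes. The other 7 spanned 1.394-fold (Apoa2) to 1.764-fold (Apoa1), and at most 14.27% of tested genes had a narrower span than any of them. Most tested genes were dimmer than these 10, and spans at like brightness were not compared. The nodule was the lowest array for 8 of the 10 genes, all but Apoc2, lowest in the wild-type female pool, and Mttp, lowest in the 14-month adjacent liver. The share of all tested genes lowest in the nodule was not counted. Its array also had the lowest signal exceeded by 0.1% of probe sets, 46494 against 48175 to 78062 on the others.

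**Figure D1:**
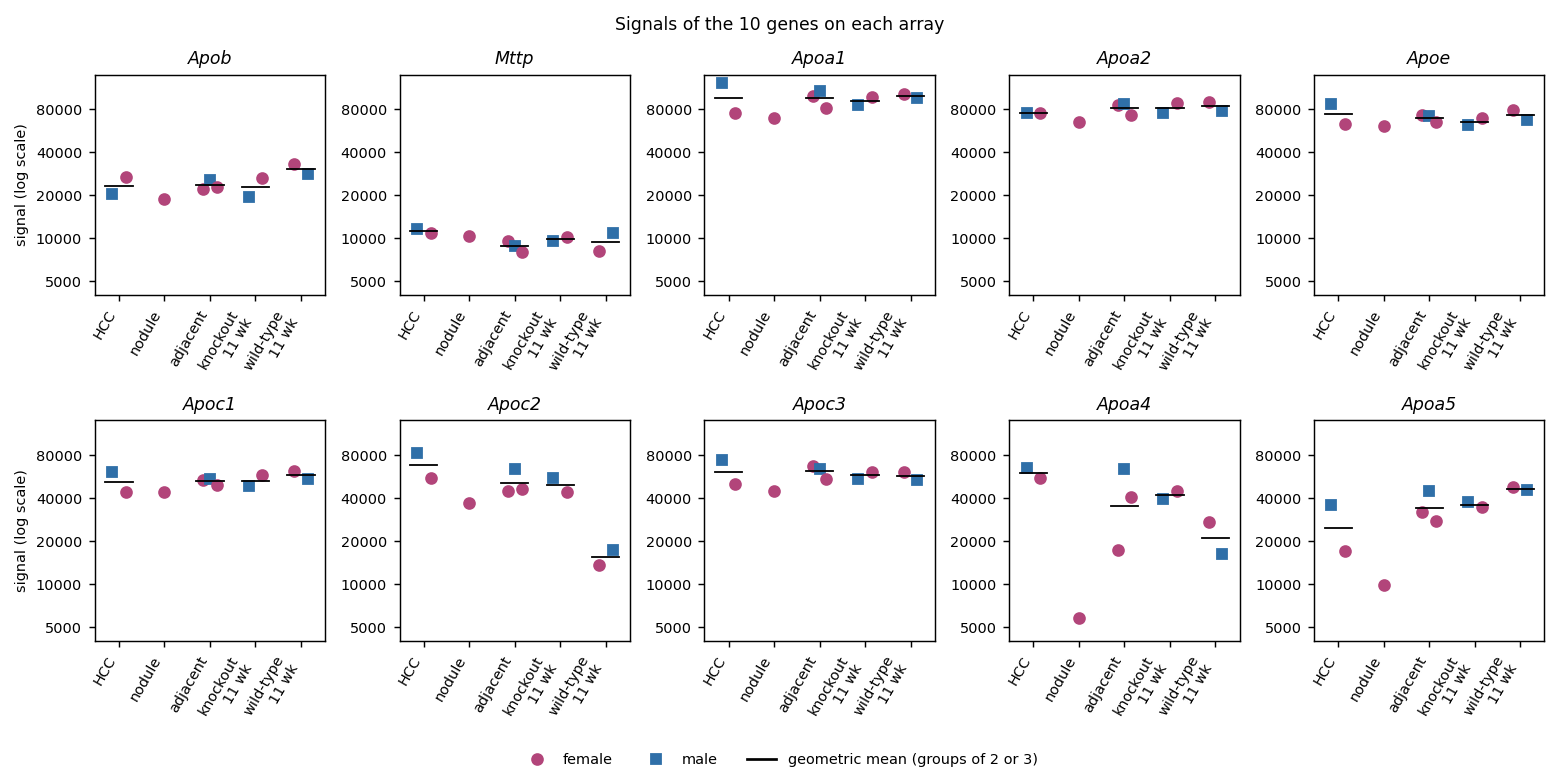
Deposited signal (log scale) of each of the 10 genes on each of the 10 arrays, with HCC, nodule, adjacent liver, knockout and wild-type pools from left to right, circles for females and squares for males, and a line at the geometric mean of groups of 2 or 3 arrays. Apoc2 sits above both wild-type pools on all 8 knockout arrays, Apoa4 and Apoa5 spread widely with the nodule lowest, and the other 7 genes lie within a 1.764-fold span or less.

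The first comparison asked which of these transcripts differ without Gnmt at 11 weeks. Apoc2, the lipoprotein lipase activator, rose 3.201-fold in knockout liver. Apoa4 was 1.991-fold higher without passing the test, Apob and Apoa5 were at 0.7437 and 0.7701 of the wild-type level without passing it, and the other 6 genes lay between -0.15 and 0.07 on the log2 scale. Of the 10 genes, 1 was called at an adjusted p below 0.05, where 160 of 11032 genes were called in all (78 higher and 82 lower), a share of 1.45%. At an unadjusted p below 0.05 there were 3 of the 10, against 2151 of all genes. The 10 genes had a median log2 difference of -0.08 and all tested genes one of -0.05.

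Apoc2 had signals of 44215.8 in the female and 54980.1 in the male knockout pool, against 13652.2 in the female and 17347.5 in the male wild-type pool. Both knockout pools lay well above both wild-type pools, and the gap was alike in the sexes, with log2 differences of 1.69 in females and 1.66 in males. The fitted difference was 1.68 ± 0.17 (SE over 2 pools per genotype, adjusted p = 0.0139 by limma), the 14th smallest p-value of all tested genes. A residual spread of 1 degree of freedom stands behind this test, moderated by limma towards a variance fitted over all tested genes. With sex as a term, that spread is how far the genotype difference varied between the sexes. No genotype had a second pool of the same sex. Over 13 alternative settings the difference ran from 1.60 to 1.83, and the call held in 6 of them. It was lost without the intensity trend of the variance (adjusted p = 0.208), without the sex term (adjusted p = 0.0767) and with all 10 arrays in the fit (adjusted p = 0.12). With 1 young pool left out of that last fit the adjusted p was 0.223 to 0.74.

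Apoc2 lies on the minus strand of chromosome 7, between Clptm1 and Apoc4, in a cluster that continues with Apoc1 and Apoe. Its upstream sequence is shown because it is the gene that passed the test, and the sequences of Apoa4 and Apoa5 because they are the other genes with wide spans. They are from RefSeq, build GRCm38.p6, 5′ to 3′ on the strand of the gene, and end at the base before the annotated gene start. The Apoc2 stretch, chr7:19677942-19678083 on the minus strand, is 142 bases long because the annotated Apoc4 gene begins just beyond its far edge. The Apoa4 stretch is chr9:46240594-46240843 and the Apoa5 stretch chr9:46268358-46268607, both on the plus strand. Capitals mark the motifs found.
Apoc2: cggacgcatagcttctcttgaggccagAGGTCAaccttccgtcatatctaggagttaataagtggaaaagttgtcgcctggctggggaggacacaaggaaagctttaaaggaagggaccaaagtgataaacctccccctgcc
Apoa4: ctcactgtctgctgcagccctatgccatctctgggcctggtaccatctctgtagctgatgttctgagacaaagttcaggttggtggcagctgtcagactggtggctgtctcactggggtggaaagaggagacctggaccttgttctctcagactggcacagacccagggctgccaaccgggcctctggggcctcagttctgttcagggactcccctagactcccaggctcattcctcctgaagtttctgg
Apoa5: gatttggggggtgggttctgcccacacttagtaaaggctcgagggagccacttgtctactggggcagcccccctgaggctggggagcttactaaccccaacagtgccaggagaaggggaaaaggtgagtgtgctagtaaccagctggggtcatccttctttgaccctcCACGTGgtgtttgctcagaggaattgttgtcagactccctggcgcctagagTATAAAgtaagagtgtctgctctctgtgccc

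Both strands were searched for 4 motifs. The first, AGGTCA, is the core hexamer of many nuclear receptor sites. The second was the E-box CACGTG, which reads alike on both strands. The third was the box TATAAA that sets the start of transcription in many genes. The fourth was TGACGTCA, the cyclic AMP response element. Upstream of Apoc2 there was 1 AGGTCA, starting 115 bases before the gene. Apoa4 held none of the 4 motifs, and Apoa5 held CACGTG at 82 and TATAAA at 31 bases before its start. Among 250 upstream bases of 27025 genes, AGGTCA occurred in 13.8%, CACGTG in 6.04%, TATAAA in 13% and TGACGTCA in 1.6%. Such matches describe letters only. Of the 10 genes, 8 had a RefSeq entry in the table used. Among those not shown, Apob held TATAAA at 60 bases and Apoa2 AGGTCA at 238 bases. The Apoa2 match lies past the near edge of another annotated gene.

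The apolipoprotein genes beside Apoc2 had smaller differences of the other sign, none of which passed. Apoc1, next but one along the chromosome, differed by -0.135 ± 0.151 (adjusted p = 0.671) and Apoe by -0.15 ± 0.15 (adjusted p = 0.61; SE, n = 2 pools per genotype, limma). Apoc4, which lies between Apoc2 and Apoc1 and is not one of the 10 genes, was looked up after the values were seen. It had signals of 35811.5 and 23901.8 in the female and male knockout pools, against 39130.6 and 38019.3 in the female and male wild-type pools. RefSeq also lists Gm44805, a read-through transcript of Apoc4 and Apoc2 that overlaps Apoc2. No probe set was examined for it, so its share in the Apoc2 signal was not tested.

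**Figure D2:**
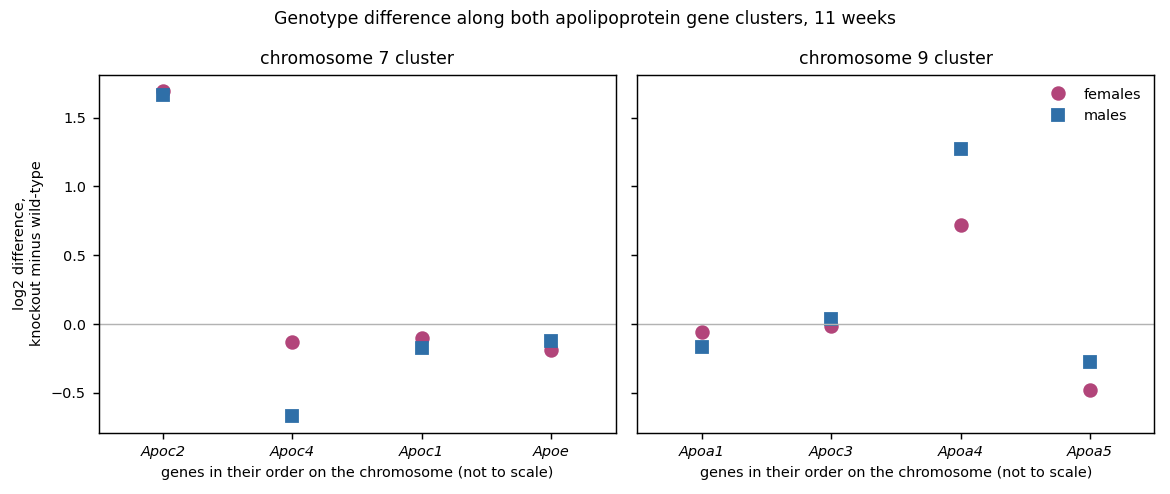
Log2 difference, knockout minus wild-type at 11 weeks, for the apolipoprotein genes of the chromosome 7 and chromosome 9 clusters in their order along the chromosome, with circles for females and squares for males. Apoc2 (1.69 and 1.66) and Apoa4 (0.72 and 1.27) stand above their neighbours, which lie between -0.67 and 0.03.

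Apoa4 is a member of the second cluster, on chromosome 9, in the order Apoa1, Apoc3, Apoa4 and Apoa5. It had signals of 44904.7 in the female and 39487.6 in the male knockout pool, against 27317.1 in the female and 16352.8 in the male wild-type pool. The pools of the genotypes did not overlap, and the wild-type pools differed more from each other than the knockout pools did. The fitted difference of 0.99 ± 0.19 did not pass (SE over 2 pools per genotype, limma adjusted p = 0.0609). It passed with quantile normalization (adjusted p = 0.0103) and with arrays centred on their 75th percentile (adjusted p = 0.0267). Its second probe set gave log2 differences of 0.78 in females and 1.60 in males.

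The flanking genes of that cluster differed less, and not all one way. Apoa1 differed by -0.11 ± 0.14 (adjusted p = 0.708) and Apoc3, the lipase inhibitor, by 0.01 ± 0.15 (adjusted p = 0.978; SE, n = 2 pools per genotype, limma). Apoa5 had signals of 34422.9 in the female and 37398.6 in the male knockout pool, against 47877.9 in the female and 45353.9 in the male wild-type pool. Its pools did not overlap, with a fitted log2 difference of -0.38 ± 0.16 that did not pass (limma adjusted p = 0.26).

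Apob had signals of 26624.9 in the female and 19331.2 in the male knockout pool, against 32972.5 in the female and 28234.8 in the male wild-type pool. Here too the pools were apart, with a difference of -0.43 ± 0.17 that did not pass (SE over 2 pools per genotype, limma adjusted p = 0.238). On the dimmer Apob probe set the pools overlapped. It had 1333.9 in the female and 1235.3 in the male knockout pool, against 1913.5 in the female and 1316.5 in the male wild-type pool. Mttp had 10286.4 in the female and 9632.2 in the male knockout pool, against 8199.3 in the female and 10965.7 in the male wild-type pool. These pools overlapped, with opposite signs in the sexes and a fitted difference of 0.07 ± 0.21 (limma adjusted p = 0.888). Apoa2 differed by -0.05 ± 0.14 (adjusted p = 0.888). In all, the pools of the genotypes were apart for 4 of the 10 genes, Apoa4, Apoa5, Apob and Apoc2. The share among all tested genes was 48.1%, so that count is near the background.

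**Figure D3:**
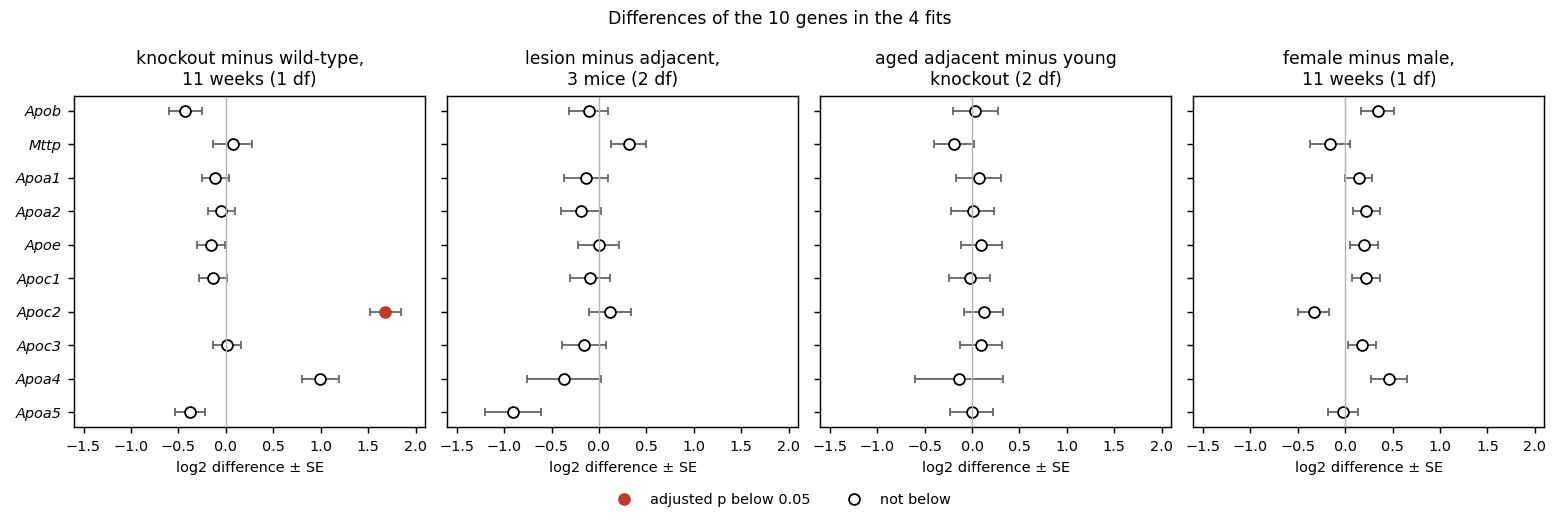
Fitted log2 difference with its SE for each of the 10 genes in the 4 comparisons, with the residual degrees of freedom of each fit in its title and filled points for an adjusted p below 0.05. Apoc2 in knockout against wild-type liver (1.68 ± 0.17) is the only filled point.

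Lipoprotein genes outside the 10 were taken from lists of their roles. Among 9 other apolipoproteins tested of 10 listed, Saa4, a serum amyloid A protein carried on HDL, fell by 2.33 ± 0.21 on the log2 scale (limma adjusted p = 0.0117), and no gene passed in the other direction. Their median difference was -0.07. Saa1 and Saa2, the acute phase members of that family, looked up after their values were seen, differed by 1.82 ± 0.56 (limma adjusted p = 0.156) and 2.44 ± 0.89 (limma adjusted p = 0.204) without passing. Saa1 was at 5285.1 in the female and 62189.1 in the male knockout pool, against 3946.8 in the female and 6698.7 in the male wild-type pool. Saa2 was at 1601.3 in the female and 35311.6 in the male knockout pool, against 1448 in the female and 1314.6 in the male wild-type pool. The male knockout pool thus held most of both differences, and signal shared between these near-identical genes was not resolved. Among 9 genes of HDL formation tested of 10, Pltp, the phospholipid transfer protein, rose by 2.22 ± 0.22 (adjusted p = 0.0139), and the list's median was -0.32. Among 6 genes of lipoprotein lipase and its regulators tested of 7, Lpl itself, the enzyme that C-II activates, rose by 2.09 ± 0.24 (adjusted p = 0.0164), with a list median of -0.18 (SE, n = 2 pools per genotype for each).

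Lpl had signals of 4486.5 and 3610.4 in the female and male knockout pools, against 855.8 and 1010 in the female and male wild-type pools, so both the enzyme and its activator were higher in each knockout pool than in either wild-type pool. None of 14 helpers of VLDL assembly and export tested of 17 was called by limma (2 at an unadjusted p below 0.05, median 0.01), nor any of 7 receptors and their regulators tested of 10 (2 at that level, median -0.31). None of 14 regulators of apolipoprotein transcription tested of 16 was called either (7 at that level, median -0.29). The median over all tested genes was -0.05.

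Markers of other cell types also moved with the genotype. The 8 endothelial markers summed to 4463.3 to 4639.2 in knockout pools and 8552.7 to 11666 in wild-type pools, and Stab2 and Oit3 among them fell, with log2 differences of -1.55 ± 0.23 (limma adjusted p = 0.0401) and -1.35 ± 0.235 (limma adjusted p = 0.0496). The 12 macrophage and Kupffer cell markers summed to 15810 to 16457 in knockout and 19122 to 28635 in wild-type pools, with none of the 12 above 0 in its difference and none called by limma (5 at an unadjusted p below 0.05). The 7 hepatocyte markers summed to 271120 to 306730 in knockout and 300750 to 320850 in wild-type pools, with none of them called (1 at an unadjusted p below 0.05). The stellate cell sums of the genotypes overlapped (17692 to 17853 in knockout, 14635 to 21378 in wild-type pools), as did those of cholangiocyte markers (199 to 591.5 and 327.5 to 501.5). The adipocyte markers, 2 measured of 4, were both below the filter and summed to 8.6 to 99.3 over the arrays. The part of these shifts in the values of the 10 genes was not tested.

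A measure of RNA quality and genes of the daily clock also differed between the young pools. The 3' to 5' ratio of Actb was 3.38 and 3.18 in the female and male knockout pools and 2.62 and 2.6 in the female and male wild-type pools. The same ratio for Gapdh did not separate the genotypes, with 0.955 and 1.09 in the female and male knockout pools and 0.938 and 0.982 in the female and male wild-type pools. Arntl, a clock gene looked up after values were seen, was at 22.2 and 85.2 in the female and male knockout pools, against 911.5 in the female and 81.9 in the male wild-type pool. Dbp, whose daily cycle runs opposite to it, was at 11096.8 and 8413.8 in the female and male knockout pools, against 190.6 in the female and 9904.3 in the male wild-type pool. The part of RNA quality and of the clock in the Apoc2 difference, and in the other differences between young pools, was not tested.

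The 6 aged knockout arrays extend the comparison with the 2 wild-type pools, with age and array handling differing as well. All 8 knockout arrays lay above both wild-type pools for Apoc2, whose lowest knockout signal, in the nodule, was 2.139 times the highest wild-type signal. All 8 lay below both wild-type pools for Apoa5, by 0.02 at the closest on the log2 scale, and for Apob, by 0.07. These are 3 of the 10 genes, and 15.3% of tested genes had all 8 knockout arrays on 1 side (888 genes above and 798 below). By the size of the gap, Apoc2 ranked 54 of all tested genes. Apoa4 did not part this way, since the nodule (5758.9) lay below both wild-type pools. Nor did the dimmer Apob probe set, with 2688.4 in the male HCC against 1913.5 in the female and 1316.5 in the male wild-type pool.

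Each lesion was then set against the adjacent liver whose sex and age matched, taken to be from the same mouse. None of the 10 genes was called over the 3 pairs by limma, and 1 of the 10 had an unadjusted p below 0.05, where 1 of 11032 genes was called (0.00906%) and 1096 had an unadjusted p below 0.05. The median log2 difference was -0.12 over the 10 genes and 0.004 over all tested genes. Apoa5 was lower in all 3 lesions, Mttp was higher in all 3, and the nodule and the HCCs went apart for Apoa4. A shared sign in 3 mice, seen for these 2 of the 10 genes, was shared by 32.4% of tested genes.

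Apoa5 had signals of 35760.7 in the male HCC, 17107.6 in the female HCC and 9935.1 in the nodule, against 44755.7, 27789.7 and 32150.4 in the adjacent livers of these mice in the same order. The lesion was lower in each mouse, though the groups overlapped through the male HCC. The lesion to adjacent ratios were 0.799 in the 18-month male, 0.616 in the 14-month female and 0.309 in the 21-month female with the nodule. Over the 3 pairs the difference was -0.905 ± 0.291 (SE, n = 3 pairs, limma unadjusted p = 0.0188, adjusted p = 0.395). Without the nodule mouse it was -0.51.

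Mttp had signals of 11552.4 in the male HCC, 10932.6 in the female HCC and 10317.8 in the nodule, against 8819.8, 7969 and 9638 in the adjacent livers in the same order. Every lesion lay above every adjacent liver, as for 8.80% of tested genes, and no other of the 10 genes was apart in this way. The difference of 0.31 ± 0.18 did not pass (SE, n = 3 pairs, limma adjusted p = 0.619). The second, dimmer Mttp probe set gave log2 differences of 1.02, 0.46 and 0.02 in the male HCC, the female HCC and the nodule.

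Apoa4 had signals of 65021 in the male HCC, 55186.8 in the female HCC and 5758.9 in the nodule, against 63431.2, 40555.3 and 17284.8 in the adjacent livers in the same order. The HCCs were at or above their adjacent livers and the nodule was below its own, at a ratio of 0.3332. The log2 differences were 0.04, 0.44 and -1.58, and the difference over 3 pairs was -0.37 ± 0.39 (SE, n = 3 pairs, limma adjusted p = 0.795). Leaving out the nodule mouse turned it to 0.24. The adjacent liver of the nodule mouse was also the lowest of the 3 adjacent livers for Apoa4.

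Apoc2 had signals of 83180 in the male HCC, 55121.2 in the female HCC and 37111.4 in the nodule, against 64319.2, 46118.1 and 45080.3 in the adjacent livers in the same order. The HCCs were above their adjacent livers and the nodule below its own, and the lesions overlapped the adjacent livers. The difference was 0.12 ± 0.22 (SE, n = 3 pairs, limma adjusted p = 0.901). The remaining 6 genes, Apoa1, Apoa2, Apob, Apoc1, Apoc3 and Apoe, differed by -0.189 to -0.004 over the 3 pairs, with adjusted p-values of 0.806 to 0.997. Their single pairs ran from -0.59 (Apoc3 in the nodule) to 0.28 (Apoe in the male HCC).

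Apob, the scaffold of VLDL, gave different answers by probe set. The brighter one had log2 differences of -0.33 in the male HCC, 0.24 in the female HCC and -0.23 in the nodule. The other, whose mean signal of 1433.9 compares with 24382 for the brighter one, had 1.082, 0.994 and -0.525. In the female HCC and the nodule they had the same sign, and in the male HCC opposite signs.

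The nodule and its adjacent liver were 1 array each, so their difference has no replicate check. Apoa4 and Apoa5 were the 2 of the 10 genes at least 2-fold away from the adjacent liver, both lower, where 11.7% of tested genes were (862 higher and 426 lower). Lower in the nodule were 9 of the 10 genes, with Mttp the exception, and their median was -0.348 against 0.025 over all tested genes. The brightest signals of that array were lower as a whole: the signal exceeded by 0.1% of probe sets differed by -0.367 on the log2 scale in the nodule, by 0.101 in the male HCC and by -0.125 in the female HCC. The nodule values of Apoa4 (-1.58) and Apoa5 (-1.69) lay far beyond that shift, those of Apoa1, Apoa2 and Apoc3 (-0.59 to -0.40) less so, and those of Apob, Apoc1, Apoc2 and Apoe (-0.29 to -0.23) were smaller than it. By mean signal Apoa1, Apoa2, Apoe and Apoc3 are themselves among the brightest 0.1% of probe sets. Apoa4 and Apoa5 are less bright, with 0.277% and 0.357% of probe sets above them, and the shift at their level was not measured.

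**Figure D4:**
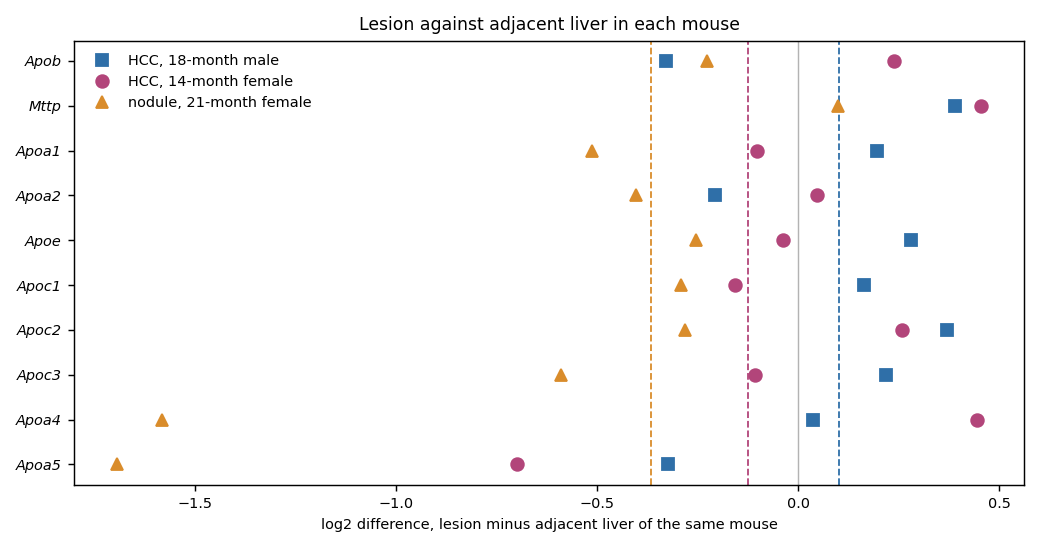
Log2 difference, lesion minus adjacent liver, of each of the 10 genes in the 18-month male with HCC (squares), the 14-month female with HCC (circles) and the 21-month female with the nodule (triangles). Dashed lines give each pair's difference in the signal exceeded by 0.1% of probe sets (0.101, -0.125 and -0.367), and Apoa4 and Apoa5 in the nodule lie farthest from it at -1.58 and -1.69.

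Hepatocyte markers summed to 222360 to 336990 in the HCCs, 273710 in the nodule and 284340 to 334280 in the adjacent livers. Macrophage markers summed to 27342 to 38287 in the HCCs and 29734 in the nodule, against 14378 to 32922 in the adjacent livers. Endothelial markers ran from 4928.7 to 11342 in the HCCs, were at 5800.7 in the nodule and ran from 3996 to 7887.3 in the adjacent livers. Lymphocyte and neutrophil markers summed to 16309 in the male HCC and 16279 in its adjacent liver, and to 867.1 to 2960.3 on the other 8 arrays. Arntl was at 847.2 and 553.2 in the HCC and adjacent liver of that male, against 13.6 to 382 in the tissues of the 2 aged females. The 3' to 5' ratio of Actb was 3 in the male HCC, 3.46 in the female HCC and 2.46 in the nodule, against 3.62, 2.61 and 2.57 in the adjacent livers in the same order. That of Gapdh was 1.3, 1.07 and 0.855 in these lesions, against 1.33, 0.854 and 0.986 in the adjacent livers in the same order. The part of these differences in the lesion values was not tested.

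Of the lipoprotein lists, none had a called gene in lesions by limma, and 0 to 3 genes per list had an unadjusted p below 0.05. Their medians were 0.14 for the other apolipoproteins, -0.085 for VLDL helpers, -0.14 for HDL genes, 0.19 for receptors, 0.26 for the lipase group and -0.02 for transcriptional regulators, against 0.004 over all tested genes. Lpl had signals of 17049.4, 2984.9 and 12212.9 in the male HCC, the female HCC and the nodule, against 3978.7, 7454.5 and 1080.7 in the adjacent livers in the same order. The female HCC was lower than its adjacent liver and the other 2 lesions were higher.

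Aged adjacent liver was next set against young knockout liver, with sex as a term. None of the 10 genes was called by limma and none had an unadjusted p below 0.05, where 0 of 11032 genes were called (0%) and 1355 had an unadjusted p below 0.05. Their differences ran from -0.19 (Mttp) to 0.12 ± 0.21 (Apoc2, SE, n = 3 livers against 2 pools, limma adjusted p = 0.822), with a median of 0.02 against 0.08 over all tested genes. Apoc2 was at 45080.3, 64319.2 and 46118.1 in the adjacent livers of the 21-month female, the 18-month male and the 14-month female, against 44215.8 and 54980.1 in the female and male knockout pools. Its level in adjacent liver overlapped that of young knockout liver, and both lay above the wild-type pools.

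Apoa4 varied most with the mouse. The 21-month adjacent liver (17284.8) was 1.38 below the young female pool (44904.7) on the log2 scale, the 14-month one (40555.3) was 0.15 below it, and the 18-month male liver (63431.2) was 0.68 above the young male pool (39487.6). The fitted difference was -0.14 ± 0.46 (SE, n = 3 livers against 2 pools, limma adjusted p = 0.91). In that male, 9 of the 10 genes were above the young male pool, with a median of 0.226 against 0.156 over all tested genes. The signal exceeded by 0.1% of probe sets was 0.505 higher on that male's array. No gene of the 6 lists was called by limma (1 to 3 per list at an unadjusted p below 0.05), and list medians ran from -0.155 for the lipase group to 0.553 for the receptors.

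Females and males were compared over the 4 young pools. None of the 10 genes was called by limma, where 30 of 11032 genes were (18 higher and 12 lower in females, 0.272%). An unadjusted p below 0.05 was reached by 1 of the 10 genes and 1016 of all. Apoa4 was the gene concerned, with a female minus male difference of 0.46 ± 0.19 (SE, n = 2 pools per sex, unadjusted p = 0.048, limma adjusted p = 0.538), made of 0.185 in knockout and 0.74 in wild-type pools. The wild-type pools also differed in Arntl (911.5 in the female, 81.9 in the male) and Dbp (190.6 and 9904.3). Sex and the clock cannot be told apart in that pair. Apoc2 differed by -0.33 ± 0.17 (limma adjusted p = 0.59), lower in the female pool of each genotype by a like amount (-0.314 in knockout, -0.345 in wild-type). Apob differed by 0.34 ± 0.17 (limma adjusted p = 0.592). The 10 genes had a median of 0.19 and all tested genes one of 0.03, and no list gene was called (0 to 3 per list at an unadjusted p below 0.05, medians -0.14 to 0.36). With all 10 arrays in the fit the female minus male values of Apoa1, Apoa4, Apoc1, Apoc3 and Apoe turned negative. That fit takes in the aged tissues, whose only male is the 18-month mouse, so it does not compare the young pools alone.

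Across the 5 groups, ordered by mean log2 signal, Apoc2 ran from wild-type at the low end through nodule, young knockout and adjacent liver to HCC, and each of the last 3 overlapped its neighbour in that order. Apoa4 ran from nodule through wild-type, adjacent liver and young knockout to HCC. Its adjacent liver range (17284.8 to 63431.2) overlapped wild-type, young knockout and HCC (55186.8 to 65021). Apoa5 ran from nodule through HCC, adjacent liver and young knockout, which overlapped in turn, to wild-type at the high end. Apob likewise had wild-type at the top and the nodule at the bottom, with the 3 other groups overlapping between them. Mttp began with adjacent liver, wild-type and young knockout, which overlapped, and ended with nodule and HCC. Its wild-type male pool (10965.7) still lay above the nodule (10317.8) and the female HCC (10932.6). For Apoa1, Apoa2, Apoc1, Apoc3 and Apoe the nodule was lowest and all other neighbouring groups overlapped.

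The profiles most like those of the 2 widest-ranging genes were found by the root mean square difference between centred log2 profiles over the 10 arrays, as a description. For Apoc2 they were Tubb4b (0.244), Timeless (0.245), Alkbh2 (0.288), Tomm40l (0.304) and Cd151 (0.304). Tubb4b, a beta tubulin, had signals of 5685.7 and 7402.1 in the female and male knockout pools, against 2416 and 1933.2 in the female and male wild-type pools. For Apoa4 they were Troap (0.415), Slc37a1 (0.479), Ifi202b (0.501), Dennd11 (0.58) and Armcx3 (0.589). Troap was at 20.6 in the nodule and 299.6 in the male HCC, the arrays at which Apoa4 was lowest and highest. The nodule signal of Troap is close to the constant of 16.8 added before log2, and that of Ifi202b (2.5) is below it. The arrays share their scaling, and the likeness was given no test.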

How the data were processed

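Total RNA extracted with Trizol was made into biotin-labelled cRNA from 5 ug, per the labels' protocols. The authors deposited 1 linear intensity for each probe set, computed with GCOS, per the submitters' processing notes, which give no version. On the array checked, the wild-type female pool, the mean was 500 once 2% of signals were trimmed from either end. No detection call was used here.

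Of 45101 probe sets, 64 are controls, 34945 had a single gene in GEO's platform annotation, 932 several and 9160 none. Symbols were updated for 34741 through RefSeq. Signals were taken to log2 after adding 16.8, their 20th percentile. The brightest probe set stood for each of 18193 genes, and 11032 with a mean log2 above that of the median signal of 91 were tested. Differences are on this scale.

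Models were fitted with limma 3.58.1 in R 4.3.3 with an intensity trend, and p-values adjusted by Benjamini-Hochberg over 11032 genes and called below 0.05. Sex, genotype or mouse were terms, which left 1 degree of freedom at 11 weeks and 2 otherwise. The procedure was tested on simulated data whose variances were drawn from limma's own fit, so that variance model could not be checked this way. Lesion and adjacent liver were paired by the sex and age in the labels, which give no mouse number.

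All 10 members, called genes of the lists (at most 3 per list and comparison), Gnmt, and the 5 profiles most like each of the 2 widest-ranging members were named. Arntl, Dbp, Apoc4, Saa1 and Saa2 were chosen after their values were seen. Members and lists were chosen with earlier results of these data known.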

Additional observations from a re-analysis of the deposited data

Results flagged for a closer look

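In several genes an effect had opposite signs in 2 groups. None of these differences between groups was tested, and each rests on single arrays or pairs. In the nodule minus adjacent comparison Apoa4 was at -1.58 and in the HCCs at 0.24 on average, a gap of -1.82 on the log2 scale. For Apoc2 the nodule was at -0.28 and the HCCs at 0.31, a gap of -0.595.

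In aged adjacent minus young knockout liver, females and the male went opposite ways in 5 genes. The female minus male gap was -1.445 for Apoa4, -0.648 for Apob, -0.463 for Apoa5, -0.365 for Apoa2 and -0.342 for Apoc1. The females were lower and the male higher each time. The median over all tested genes was 0.156 in the male comparison, and 0.004 and 0.068 in the 21-month and 14-month female ones. The signal exceeded by 0.1% of probe sets was 0.505 higher in the aged male liver than in the young male pool, and 0.049 and -0.141 in the 2 female comparisons; its part in these gaps was not tested.

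In knockout minus wild-type liver at 11 weeks, Mttp was at 0.327 in females and -0.187 in males, a gap of 0.513, which is also the gap between its female minus male difference in knockout (0.095) and wild-type pools (-0.419). Apoc3 was at -0.014 in females and 0.034 in males, a gap of -0.048. For Apoa5 the female minus male difference was -0.12 in knockout and 0.078 in wild-type pools, a gap of -0.198.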

How the results depend on the processing

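Settings tried were an added constant of 8.4 or 33.6, quantile normalization, 75th percentile centring, no filter, no intensity trend, no covariate, the mean over a gene's probe sets, all 10 arrays in 1 fit, and leaving out each array or mouse. At 11 weeks the last used the all-array fit, since 3 arrays leave no residual degree of freedom. Of the 10 genes, 1 was called between genotypes; 2 were with quantile normalization or centring (Apoc2 and Apoa4), 0 without the trend, without the sex term, with all 10 arrays, and 0 with any array left out. No member was called in the other comparisons under any setting run. Genes called between genotypes numbered 160, and 607 with quantile normalization, 341 with centring, 38 with mean probe sets, 2 without the sex term, 1 without the trend or with all arrays, and 0 to 6 with an array left out. Between sexes they numbered 30, and 1 to 87; in lesions 1, and 0 to 5, or 2 to 177 with a mouse left out (177 without the 18-month male); with age 0, and up to 441 without the young female pool.

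A direction was counted as turned only where the difference in the main fit was at least its SE. The turned value itself need not reach its SE. Of 520 values, 426 kept their sign and side of the threshold, 7 lost the call, 2 gained it and 27 turned. In another 58 the sign changed as well, with the difference in the main fit below its SE. These were 17 between genotypes, 11 in lesions, 28 with age and 2 between sexes. Among them was Apoa4 in lesions (0.24 without the nodule mouse, against -0.368). Apoe between genotypes ran from -0.325 to 0.018 with an array left out. Female minus male values turned in Apoa1 with quantile normalization (0, since it is the brightest probe set on these arrays), and with all 10 arrays in Apoa1 (-0.169), Apoa4 (-0.229), Apoc1 (-0.032), Apoc3 (-0.072) and Apoe (-0.035). With an array left out of that fit they ran from -0.28 to -0.247, -0.519 to -0.353, -0.119 to -0.097, -0.154 to -0.139 and -0.114 to -0.093 for these 5 genes in that order. The cause was not tested. Centring moved the median of all genes between genotypes to 0.102, against -0.048, and with age to -0.101, against 0.081. Lesion and adjacent liver were paired by sex and age, taken to mark the same mouse. The comparisons of genotype and of age had sex as a term, and that of the sexes had genotype.

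The 4 young arrays leave 1 degree of freedom, and pooling hides the spread between mice. The p-values rest on the spread between pools, moderated by limma towards a variance fitted over all tested genes. Array precision is limited by their number.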
